A study of Mus musculus with 4 samples.

Results

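The nuclear genes of respiratory complexes II to V were followed in RNA-seq of E13.5 mouse retinas. They were taken by symbol from the gene count table: the 4 succinate dehydrogenase genes *Sdha* to *Sdhd* for complex II, *Cyc1* and all genes starting with Uqcr for complex III, *Cox5a*, *Cox5b*, *Cox6c*, *Cox7b*, *Cox7c* and *Cox7a2l* for complex IV, and all genes starting with Atp5 for complex V, with pseudogene symbols left out. This gave 36 of 24062 genes, of which 4 belong to complex II, 9 to complex III, 6 to complex IV and 17 to complex V. The symbol rule also takes in 2 genes whose products are not subunits of the ATP synthase, *Atp5s* and *Atp5sl*, which RefSeq names *Dmac2l* and *Dmac2*, and the assembly gene *Cox7a2l*.

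The study deleted *Nrf1*, which encodes a transcription factor named for its binding sites in genes of respiration, from retinal progenitor cells. There were 2 wildtype libraries (labelled WT) and 2 *Nrf1 f/f;Six3-Cre* libraries (labelled Nrf1-CKO), all of retinas from E13.5 embryos on a mixed C57BL/6 and 129 background. Each RNA sample was a pool of 18 retinas. The Six3-Cre transgene acts in progenitors of the central retina, where it removes exon 4 of the floxed allele. Which alleles and transgenes the wildtype embryos carried besides an intact *Nrf1* is not given in the labels, and nothing says whether the 2 pools of a genotype came from separate litters, so p-values measure the spread between these pools.

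The respiratory chain passes electrons from nutrients to oxygen in the inner mitochondrial membrane and uses them to pump protons. Complex II, which is also an enzyme of the citric acid cycle, feeds electrons from succinate into the chain, complex III hands them to cytochrome c, and complex IV gives them to oxygen. Complex V, the ATP synthase, lets the protons flow back and makes ATP. All subunits of complex II are encoded in the nucleus, whereas complexes III, IV and V also contain subunits made from mitochondrial DNA, which are not analysed here.

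None of these 36 genes changed by the study's thresholds, at least 1.4-fold with an adjusted p of at most 0.2, applied here to a different test. The study applied them to the output of Cuffdiff. By edgeR's quasi-likelihood test with Benjamini-Hochberg adjustment over 15762 tested genes, 0 of the 36 genes were called lower, beside 8.04% of all tested genes, and 0 were called higher, beside 12.8%. All 36 genes passed the filter on low counts. With no minimum fold and an adjusted p of at most 0.05, 1 gene was lower in the mutant, *Sdha*, the flavoprotein subunit of complex II that oxidizes succinate, beside 10.9% of all tested genes, and 0 were higher, beside 11.9%. At an unadjusted p under 0.05 the count was 4, all lower: *Sdha*, *Uqcrb*, *Cox6c* and *Atp5h*, beside 16.9% of all tested genes that were lower at this p. The retinas are mixtures of cells, and fewer cells of a type and less RNA per cell cannot be told apart in such data.

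Most of these fold changes were small. The 95% interval of the change lay inside 1.4-fold in either direction for 30 of the 36 genes, compared with 46.6% of all tested genes. The 6 others were *Sdha*, *Uqcrq*, *Cox7c*, *Atp5g2*, *Atp5l* and *Atp5s*. The median log2 fold change was -0.06, with 26 genes below 0 and 10 above, beside a median of 0.00073 over all tested genes. By complex the median was -0.10 for complex II, -0.07 for complex III, -0.14 for complex IV and -0.02 for complex V, the last turning to 0.02 with upper-quartile scaling. These medians shifted with the processing and the libraries: with the trend on transcript length and GC content removed, that of all 36 genes was -0.0093 and that of complex III -0.0018, and they were -0.11 without Nrf1-CKO replicate 2 and -0.02 without WT replicate 1, respectively. In 16 genes both mutant libraries lay below both wildtype libraries, where 31.6% of all tested genes did so, and in 3 genes, *Uqcr11*, *Cox7c* and *Atp5g2*, both lay above, where 30.9% did so. The genes that did not overlap in the lower direction were 3 of 4 in complex II, 4 of 9 in complex III, 4 of 6 in complex IV and 5 of 17 in complex V.

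**Figure D1:**
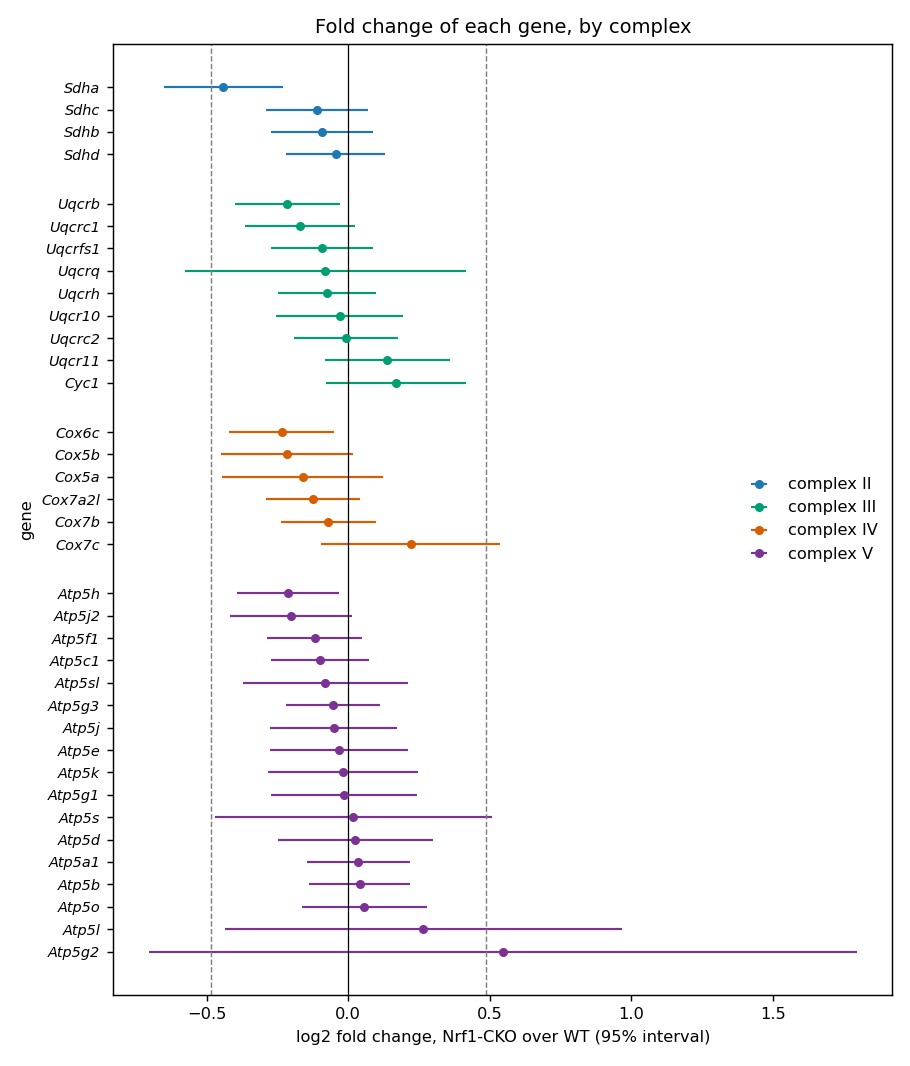
Log2 fold change of each gene in Nrf1-CKO over WT on the x axis, with 95% intervals from edgeR as bars, and genes grouped by complex on the y axis. Dashed lines mark a 1.4-fold change; the point for Sdha lies at -0.44, nearest to the lower line, and the widest interval is that of Atp5g2, from -0.71 to 1.80.

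Summed over the genes taken for each complex, the transcript level was lower in both mutant libraries for complexes II, III and IV. The values are CPM, read counts divided by library size scaled with edgeR's TMM factors. Complex II summed to 462 and 441 CPM in the wildtype and 394 and 383 CPM in the mutant libraries, 86.0% ± 1.66 of the wildtype mean (SD, n = 2). Most of this fall came from *Sdha*, with a mean of 184 CPM in wildtype and 136 CPM in mutant libraries. Its partner genes were at 92.7% to 96.9% of wildtype. Complex IV summed to 388 and 385 CPM against 348 and 357 CPM, or 91.4% ± 1.65 of wildtype. In complex III the sums were 738 and 746 CPM in wildtype and 696 and 724 CPM in mutant libraries, 95.7% ± 2.65. The genotypes did not overlap in these 3 sums. In complex V they did, with 2940 and 2931 CPM in wildtype and 2843 and 3062 CPM in mutant libraries, 101% ± 5.26. Most of the complex V sum came from *Atp5a1* and *Atp5b*. The complex IV sum covers only part of that complex. The 10 tested complex IV subunits outside the symbol rule summed to 844 and 863 CPM in wildtype and 735 and 814 CPM in mutant libraries. These sums are descriptions and were not tested.

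**Figure D2:**
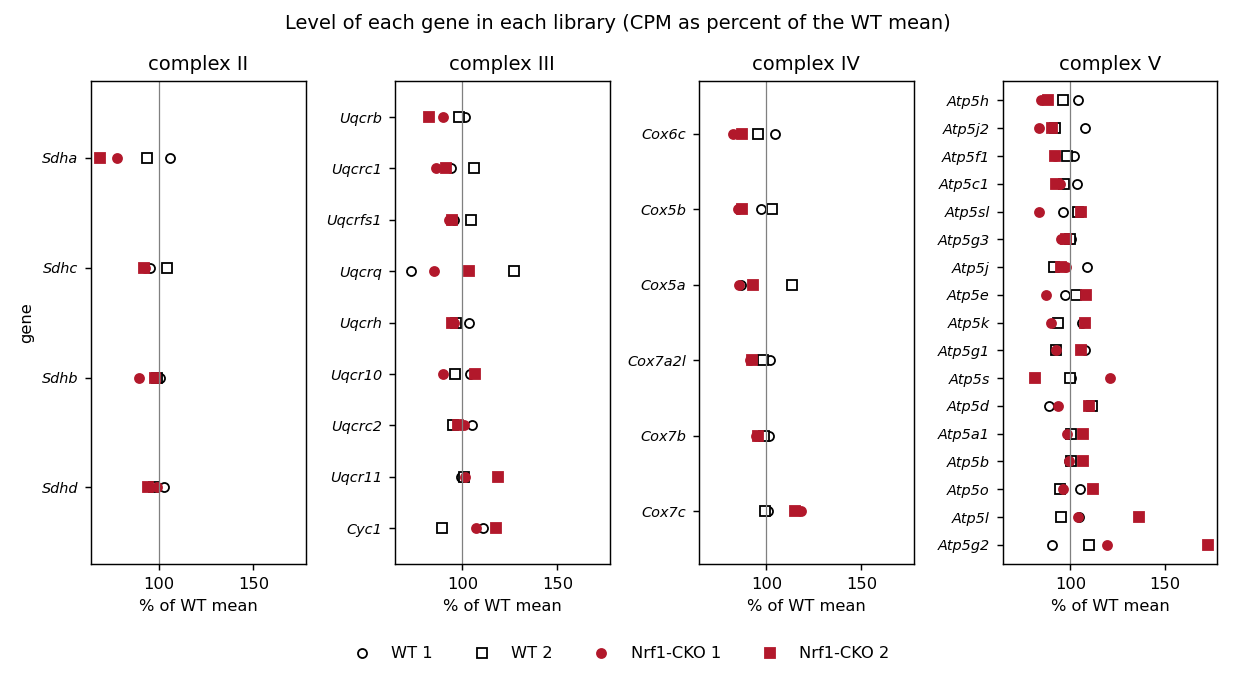
CPM of each gene in each of the 4 libraries as percent of the WT mean of that gene, 1 panel per complex. Open symbols are WT and filled symbols Nrf1-CKO libraries; for Sdha both filled symbols lie well to the left of both open symbols, with a mutant mean of 73.7% of WT, while in most genes of complex V the symbols mix.

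In complex II, *Sdha* stood apart from its 3 partner genes. *Sdha* lies on the minus strand of chromosome 13 (74322254 to 74350280, GRCm38). It was covered by 17084 and 12858 reads in wildtype and by 11924 and 10578 reads in mutant libraries. This is 195 and 173 CPM in wildtype retinas and 144 and 128 CPM in mutant retinas, so the genotypes did not overlap. Its level fell to 73.7% of wildtype (log2 fold change -0.44, standard error 0.09, 95% interval -0.65 to -0.23, adjusted p = 0.00886 by edgeR's quasi-likelihood test). The size of the fall stood close to the 1.4-fold criterion and the call rested in part on WT replicate 1: without that library the log2 fold change was -0.35 and the adjusted p 0.0939 by the same edgeR test, whereas without WT replicate 2 (-0.52) or without Nrf1-CKO replicate 1 (-0.53) *Sdha* passed the 1.4-fold criterion as well.

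*Sdhd*, which with *Sdhc* encodes the membrane anchor that passes electrons to ubiquinone, had the highest fold change of complex II. It had 83.7 and 79.5 CPM in the wildtype and 81.0 and 77.2 CPM in the mutant libraries, which overlapped (log2 fold change -0.04, standard error 0.08). *Sdhc* was at 92.7% of wildtype and *Sdhb*, the iron-sulfur subunit, at 93.8%. In both, the mutant libraries lay below the wildtype libraries, but their log2 fold changes of -0.11 and -0.09 were similar to their standard errors, 0.08 for each. The difference between *Sdha* and the other 3 genes was not tested.

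Complex III covers its catalytic subunits *Cyc1* (cytochrome c1) and *Uqcrfs1* (the Rieske iron-sulfur protein), the large core proteins *Uqcrc1* and *Uqcrc2*, and small accessory subunits. *Uqcrb*, an accessory subunit at the ubiquinone site, had the lowest fold change. It had 51.8 and 50.2 CPM in wildtype and 45.9 and 41.9 CPM in mutant libraries, without overlap (log2 fold change -0.22, standard error 0.08, adjusted p = 0.095 by edgeR). *Cyc1* had the highest fold change, with 58.6 and 47.3 CPM in wildtype and 56.7 and 62.3 CPM in mutant libraries, which overlapped (log2 fold change 0.17, standard error 0.11, adjusted p = 0.32 by edgeR). The 2 catalytic genes thus lay on opposite sides of 0, since *Uqcrfs1* had a log2 fold change of -0.09, and neither passed the test.

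Of the core proteins, *Uqcrc1* was at 88.9% and *Uqcrc2* at 99.4% of wildtype. *Uqcrh*, the hinge protein that helps cytochrome c dock, was at 94.9%, *Uqcr10* at 97.9% and *Uqcr11* at 110%. *Uqcrq* varied most between libraries of 1 genotype, with 26.3 and 45.9 CPM in the wildtype and 30.8 and 37.4 CPM in the mutant libraries. Its 95% interval, from -0.58 to 0.41, therefore did not exclude a 1.4-fold fall.

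In complex IV, cytochrome c oxidase, 5 of 6 genes had a log2 fold change below 0. *Cox6c*, a small structural subunit, had the lowest fold change, with 72.1 and 65.8 CPM in wildtype and 57.0 and 60.2 CPM in mutant libraries. The genotypes did not overlap, and the log2 fold change came to -0.24 (standard error 0.08, 95% interval -0.42 to -0.05, adjusted p = 0.0724 by edgeR). *Cox5b*, a zinc-binding subunit on the matrix side, was at 86.1% of wildtype (log2 fold change -0.22, adjusted p = 0.175 by edgeR). *Cox5a*, the neighbour of *Cox5b* in the enzyme, was at 89.4%, with overlapping libraries. With a library left out the log2 fold change of *Cox5a* ran from -0.34 to 0.05. *Cox7a2l*, which helps join complexes III and IV into supercomplexes, was at 91.7%, and *Cox7b* at 95.2%. *Cox7c* had the highest fold change, with 7.34 and 7.23 CPM in wildtype and 8.59 and 8.38 CPM in mutant libraries (log2 fold change 0.22, standard error 0.14, adjusted p = 0.307 by edgeR). Its libraries did not overlap, but its level was far below that of the other genes of the complex, which had at least 20.6 CPM in wildtype.

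Complex V joins a catalytic head in the matrix to a rotor in the membrane, with a stalk on the outside that holds the head still. Of the head genes, *Atp5b* (subunit beta) had 1174 and 1185 CPM in wildtype and 1171 and 1255 CPM in mutant libraries, the highest level of all 36 genes, and *Atp5a1* (subunit alpha) 870 and 877 CPM against 859 and 932 CPM. Their log2 fold changes were 0.04 and 0.04, both with a standard error of 0.08, and the genotypes overlapped in both. Per kilobase of transcript, these levels in wildtype were 616 and 354 CPM, above those of the other head subunits, which an enzyme holds in fewer copies: 149 CPM per kilobase for *Atp5c1* (gamma), 117 for *Atp5e* (epsilon) and 82.0 for *Atp5d* (delta). These 3 genes had fold changes of -0.10, -0.03 and 0.03 on the log2 scale.

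The gene with the lowest fold change of complex V belongs to the outer stalk. *Atp5h* (subunit d) had 58.0 and 53.6 CPM in wildtype and 47.3 and 49.1 CPM in mutant libraries, without overlap (log2 fold change -0.21, standard error 0.08, adjusted p = 0.0912 by edgeR). The other stalk genes were nearer to wildtype, *Atp5f1* (subunit b) at 92.1%, *Atp5j* (coupling factor 6) at 96.5% and *Atp5o*, the subunit that confers sensitivity to oligomycin, at 104%. Among the small membrane subunits, *Atp5j2* was at 87.0% (log2 fold change -0.20, adjusted p = 0.171 by edgeR), *Atp5k* at 98.8% and *Atp5l* at 120%, the last from only 144 and 111 reads in wildtype and 136 and 177 reads in mutant libraries. *Atp5s* was at 101% and *Atp5sl*, whose product takes part in the assembly of complex I, at 94.5% of wildtype, with overlapping libraries in both.

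Subunit c, the ring through which protons pass, is encoded by 3 genes that give the same mature protein. *Atp5g3* had 79.3 and 78.7 CPM in wildtype and 75.0 and 77.2 CPM in mutant libraries, *Atp5g1* 28.6 and 24.6 CPM against 24.6 and 28.0 CPM, and *Atp5g2* 0.354 and 0.431 CPM against 0.469 and 0.677 CPM. Of the reads on the 3 genes, *Atp5g3* took 73.3% (95% exact binomial interval 72.4 to 74.2) and 75.9% (74.9 to 76.8) in wildtype and 74.9% (74.0 to 75.9) and 72.9% (72.0 to 73.8) in mutant libraries. The share of *Atp5g1* was 26.4% and 23.7% in wildtype and 24.6% and 26.5% in mutant libraries. In both genes the shares of the genotypes overlapped. For *Atp5g3*, the intervals of the libraries of 1 genotype did not overlap, and these intervals cover counting error only.

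*Atp5g2* was the highest gene of complex V by fold change, with a log2 fold change of 0.55, but its standard error of 0.55 and its 95% interval from -0.71 to 1.80 were wide (adjusted p = 0.539 by edgeR). It rested on 31 and 32 reads in wildtype and 39 and 56 reads in mutant libraries. Its share of the reads on the 3 genes was 0.327% and 0.416% in wildtype and 0.469% and 0.639% in the mutant libraries, a difference that was not tested.

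Reads that fitted more than 1 place were not counted to a gene, and small respiratory genes have many processed copies in the genome. Therefore all windows of 100 bases, the read length, were compared between the transcript of each gene and the transcripts of genes elsewhere in the GENCODE annotation. In 25 of the 36 genes no window was shared. The share was 86.4% for *Atp5g2*, 61.3% for *Atp5l* and 44.4% for *Cox7c*, and these 3 genes had mean levels of 0.483 to 7.88 CPM, whereas the other 33 genes had 5.22 to 1196 CPM with a median of 64.3 CPM. *Atp5h* shared 29.5% and *Uqcrb* 15.8% of its windows, and the rest at most 11.7%. The levels and fold changes of these genes are therefore uncertain. Of the 4 genes at an unadjusted p under 0.05, *Sdha* shared no window and *Cox6c* 7.20%. Over the 25 genes without a shared window the median log2 fold change was -0.05.

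**Figure D3:**
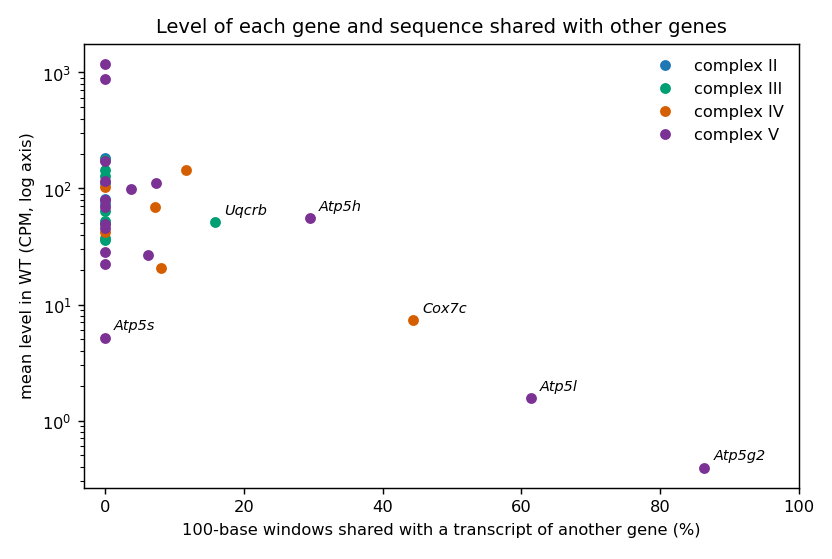
Mean CPM of each gene in WT (y, log axis) against the percentage of 100-base windows of its transcript that occur in a transcript of another gene (x), coloured by complex. The 3 genes with over 40% of windows shared, Cox7c, Atp5l and Atp5g2, lie at or below 7.28 CPM, and Atp5s is the gene at this level without shared windows.

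Nrf1 binds DNA as a dimer at a GC-rich palindrome. The letters GCATGCGC, and the longer form CGCATGCGC that contains them, were searched on both strands in promoter windows from RefSeq (GRCm38.p6), which run from 250 bases before to 50 bases after a gene's start. Of the 36 genes 29 had a promoter window, and 6 of them (20.7%) held the short motif, beside 4.0% of the 17900 genes of the count table with a promoter and 2.71% of all 32851 promoters. The longer form was in 5 of the 29 (17.2%), beside 2.60% of the 17900 genes and 1.75% of all promoters. By complex, the short motif was found in 1 of 3 genes of complex II, 2 of 5 of complex III, 0 of 5 of complex IV and 3 of 16 of complex V. A match describes the letters in these windows and not a bound site. The window of *Sdha* did not hold these exact letters, and sequences that differ from them by a base were not searched for in any gene. Genes without a match can therefore hold a near form, such as gcacgcgc in windows of *Sdhd* and *Atp5c1*. The matched stretches are shown with 10 bases on each side, or as many as the window holds. Capitals mark the motif on either strand, where overlapping matches are joined, and each is read 5′ to 3′ on the strand of its gene.
Sdhb, chr4:140961207-140961234, + strand: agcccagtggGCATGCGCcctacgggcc
Uqcr11, chr10:80406808-80406836, - strand: atcgccttcaCGCATGCGCtatacgtctg
Uqcrc1, chr9:108936668-108936697, + strand: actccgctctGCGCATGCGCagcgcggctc
Atp5g2, chr15:102671070-102671099, - strand: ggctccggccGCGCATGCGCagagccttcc
Atp5k, chr5:108434430-108434459, - strand: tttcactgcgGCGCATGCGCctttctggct
Atp5l, chr9:44920965-44920992, - strand: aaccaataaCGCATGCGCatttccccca

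In *Uqcrc1*, *Atp5g2* and *Atp5k* the match read the same on both strands. In *Sdhb*, *Atp5g2* and *Atp5k* it began 54, 42 and 50 bases before the start, in *Uqcr11* 5 bases before it and across it, in *Uqcrc1* 30 bases after it, and in *Atp5l* 241 bases before it. None of the 6 genes passed the test at either criterion. Their median log2 fold change was 0.06, and that of the 23 genes with a promoter window but no motif was -0.07. The values ranged from -0.17 in *Uqcrc1* over -0.09 in *Sdhb*, -0.02 in *Atp5k*, 0.14 in *Uqcr11* and 0.26 in *Atp5l* to 0.55 in *Atp5g2*, the last 2 being the genes with few reads and many shared windows.

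Among all tested genes the motif went with lower values. The 665 tested genes with the short motif had a median of -0.14 on the log2 scale, and of them 11.9% were called lower and 2.26% called higher at the 1.4-fold criterion. The 11662 genes with a promoter but no motif had a median of 0.0062, with 7.35% called lower and 13.0% called higher. Of the 6 respiratory genes with the motif, only *Uqcrc1* lay below that median of -0.14.

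**Figure D4:**
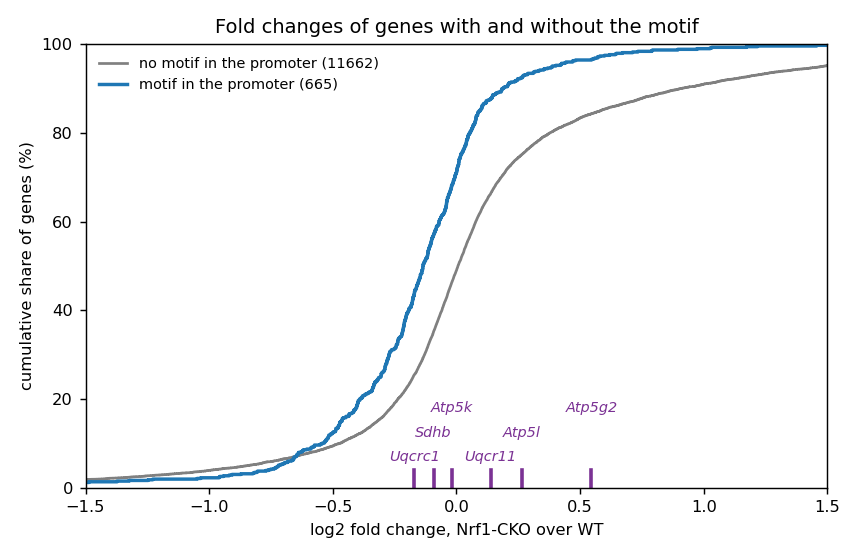
Cumulative share of tested genes (y, in %) by log2 fold change in Nrf1-CKO over WT (x), for genes with and without the short motif in their promoter; the x axis ends at -1.5 and 1.5. Ticks at the bottom mark the 6 genes of complexes II to V with the motif, from Uqcrc1 at -0.17 to Atp5g2 at 0.55.

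The other genes of the pathway, from lists of known subunits and assembly factors, were set beside them. Of 35 tested complex I subunits, 0 were called at the 1.4-fold criterion in either direction. With no minimum fold, 5 were lower and 1 was higher at an adjusted p of at most 0.05, beside 10.9% and 11.9% of all tested genes, and the median log2 fold change was -0.13. The lowest was *Ndufa8* (-0.44, adjusted p = 0.0151 by edgeR) and the highest *Ndufa1* (0.48, adjusted p = 0.0465 by edgeR). In 21 of the 35 the mutant libraries lay below the wildtype libraries without overlap, beside 31.6% of all tested genes. Of 38 tested genes listed as assembly factors and regulators of complexes II to V, 0 were called at the 1.4-fold criterion. With no minimum fold 4 were lower and 0 higher, and the median of this list was -0.08.

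The 4 lower genes were *Atpif1*, *Uqcc2*, *Cox16* and *2010107E04Rik*. *Atpif1*, the inhibitor that stops the ATP synthase from running backwards, had 195 and 192 CPM in wildtype and 140 and 147 CPM in mutant libraries (log2 fold change -0.43, standard error 0.07, adjusted p = 0.0034 by edgeR), close in size to that of *Sdha*. *Uqcc2*, an assembly factor of complex III, fell by 0.38 and *Cox16*, of complex IV, by 0.34 on the log2 scale. *2010107E04Rik*, a small proteolipid of the ATP synthase, fell by 0.31 (adjusted p = 0.0432 by edgeR). It is thus a component of complex V that the symbol rule leaves out, although it is counted in this list. The highest of the assembly list was *Atpaf1*, which helps assemble the head of complex V, with a log2 fold change of 0.35 that did not pass the test. The assembly factors of complex II ranged from -0.10 to 0.01.

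**Figure D5:**
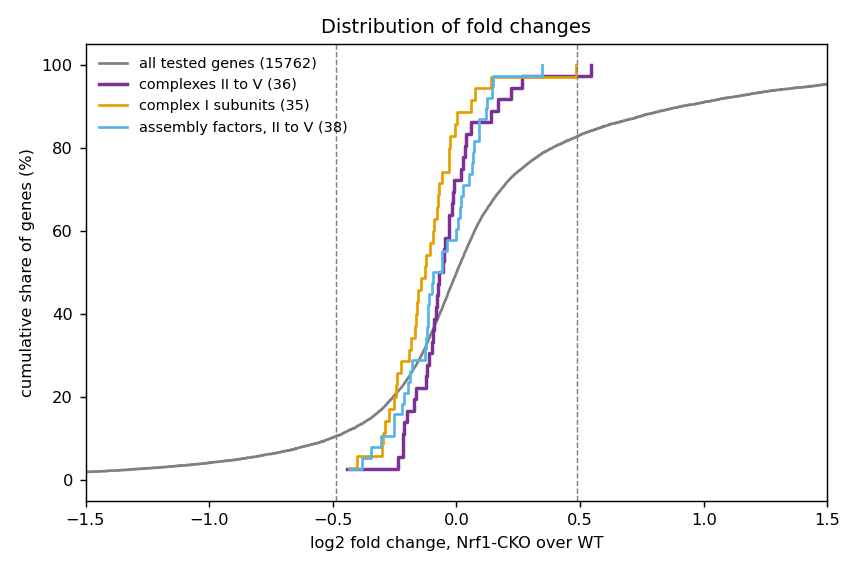
Cumulative share of genes (y, in %) by log2 fold change in Nrf1-CKO over WT (x) for all tested genes, complexes II to V, complex I subunits and assembly factors of complexes II to V; the x axis ends at -1.5 and 1.5, and dashed lines mark 1.4-fold. The respiratory lists rise steeply between the dashed lines, with medians of -0.06, -0.13 and -0.08, and of the 36 genes taken for complexes II to V only Atp5g2 lies beyond a line, without passing the test.

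Among 10 tested complex IV subunits outside the symbol rule, 1 was called lower at the 1.4-fold criterion, beside 8.04% of all tested genes, and 2 higher, beside 12.8%. These were *Cox4i2* (log2 fold change -1.69), *Cox6b2* (0.72) and *Cox6a2* (3.72, from 5 and 0 reads in wildtype and 52 and 17 reads in mutant libraries). All of them are tissue-restricted forms of a subunit. *Cox7a2* was lower with no minimum fold (-0.28). *Cox6a2* is the form of heart and skeletal muscle, and the summed level of 8 tested muscle markers was 13.8 and 5.49 CPM in wildtype and 102 and 19.6 CPM in mutant libraries, the higher in the same mutant library. The part of muscle in its value was not tested. *Cycs*, the cytochrome c that carries electrons from complex III to IV, had a log2 fold change of 0.03. Of 10 regulators of respiratory genes, the coactivator genes *Ppargc1a* and *Ppargc1b* rose, with log2 fold changes of 0.80 and 0.96 (adjusted p = 0.00355 and 0.0103 by edgeR), and *Pprc1*, of the same family, rose by 0.36 with an adjusted p of 0.0189 and no minimum fold. The ADP and ATP carriers *Slc25a4*, *Slc25a5* and *Slc25a31* and the phosphate carrier *Slc25a3* had log2 fold changes of 0.02 to 0.64, and 0 of these 4 passed either criterion.

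The libraries held 74577660 to 85933945 reads on genes. Reads on *Nrf1* numbered 9052 and 7789 in wildtype and 8594 and 8284 in mutant libraries (log2 fold change -0.03), but these cover the whole gene, of which the deletion removes 1 exon, so they do not check the labels. Makeup of the tissue differed between the genotypes. Of 14 retinal ganglion cell markers 13 were called lower, and their sum was 2062 and 2320 CPM in wildtype and 822 and 627 CPM in mutant libraries. Of 13 progenitor markers 3 were called lower, *Ccnd1*, *Fgf15* and *Hes5*, and the list's median log2 fold change was -0.12. Its sum was 8796 and 9452 CPM in wildtype and 6924 and 7465 CPM in mutant libraries, a difference that came mostly from *Ccnd1* (2658 CPM in wildtype and 1446 CPM in mutant retinas) and *Fgf15* (1137 and 701 CPM). All 11 lens markers were called higher, with sums of 156 and 431 CPM against 9090 and 3697 CPM, as were 9 of 10 macrophage markers (77.1 to 85.7 against 242 to 288 CPM), 5 of 7 tested pigment epithelium markers (164 to 225 against 410 to 437 CPM), 6 of 8 mesenchyme markers (173 to 238 against 329 to 383 CPM) and 8 of 8 tested muscle markers (5.49 to 13.8 against 19.6 to 102 CPM). Of 7 endothelial markers 5 were called higher and 1, *Kdr*, lower. The endothelial median log2 fold change was 1.13, while the summed level, most of it from *Kdr* (205 CPM in wildtype and 141 CPM in mutant retinas), was 259 to 270 CPM in all libraries. Of 6 tested erythroid markers 2 were called higher, with sums of 561 and 663 CPM against 728 and 726 CPM, and *Hba-a1* and *Hbb-bt* were listed at 0. Of 5 tested photoreceptor precursor markers 1 was called lower, with sums of 265 and 265 CPM against 227 and 228 CPM. Of 7 amacrine and horizontal cell markers 4 were called lower and 2 higher, with sums of 278 and 302 CPM against 249 and 171 CPM, most of it from *Onecut2*. The part of these shifts in the values of the respiratory genes was not tested.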

How the data were processed

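The authors mapped reads to mm10 (Tophat), obtained counts per gene with HTSeq and deposited them without normalization. The deposited normalized values are on a log2 scale. The annotation release is not given in the sources used here. Alignments that were not unique, 54.6% to 58.0% of all entries, and HTSeq's other summary rows stayed out of library sizes and tests. Genes were filtered with filterByExpr (minimum count 10), scaled with TMM factors and compared by quasi-likelihood testing (edgeR 4.0.16, R 4.3.3). DESeq2 1.42.0 and limma 3.58.1, the latter on the deposited normalized values, were alternatives. The fits were tested on simulated data.

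Members and lists were chosen with earlier results of these data known. Values in every library are given for genes passing a criterion, for the lowest and highest gene of each complex and for the subunit c genes, and further genes were described after their values were seen. Of the pathway lists, genes called at 1.4-fold and otherwise the lowest and highest are named, and the rest were chosen after their values were seen. Coordinates, exons and transcripts come from GENCODE for GRCm38. Intervals cover counting error and the spread of 2 libraries per genotype, and PCR copies are not independent molecules. The edgeR fit moderates the variance of each gene with that of the other genes, so intervals and p-values rest in part on spread shared across genes. The median of residual plus prior degrees of freedom was 8.73. The 2 libraries of a genotype differed beyond sampling noise (chi-square 46.7 per gene for WT and 58.9 for Nrf1-CKO).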

Additional observations from a re-analysis of the deposited data

How the results depend on the processing

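None of the 36 genes was called at 1.4-fold and an adjusted p of at most 0.2 under DESeq2, both other scalings, both other filters, a test against 1.4-fold (glmTreat), limma on the deposited values, the replicate block, or after removal of the trend with transcript length and GC content, the last chosen after seeing the data. When single libraries were left out, the count lay between 0 and 1 lower, for all 36 genes and for complex II alike, where the 1 was *Sdha*. The count of lower genes with no minimum fold also lay between 0 and 1 in both, and was 1 under every other alternative run. It was not computed with glmTreat, which carries a minimum fold. The median of complex II was -0.062 with upper-quartile scaling, which moved the median of all genes to 0.04, and -0.13 to -0.091 with a library left out. The median of all 36 genes lay between -0.11 (without Nrf1-CKO replicate 2) and -0.05 with a library left out, and was -0.02 with upper-quartile scaling. For complex III it lay between -0.11 and -0.02 with a library left out (-0.02 without WT replicate 1 and -0.03 without Nrf1-CKO replicate 1). With all libraries kept it was -0.04 with upper-quartile scaling or the replicate block, -0.03 by limma and -0.095 at its lowest. For complex IV it lay between -0.18 and -0.11 with a library left out. That of complex V changed sign: it was 0.02 without WT replicate 1, 0.08 without Nrf1-CKO replicate 1, -0.09 without Nrf1-CKO replicate 2, 0.02 with upper-quartile scaling and -0.04 with scaling by library size only. With the joint trend on length and GC content removed, the medians were -0.0093 for all 36 genes, -0.07 for complex II, -0.0018 for III, -0.08 for IV and 0.01 for V, and the parts of length and GC content were not separated. Over all genes, 1268 were called lower and 2024 higher, against 743 and 1188 by glmTreat and 722 and 941 by limma. Deviations of same-numbered libraries correlated at -0.0025, which does not tell how the pools were collected. With the replicate number as a block the median of the 36 genes was -0.05 and 0 were called at 1.4-fold. In that fit 1256 and 1970 of all genes were called. The 95% intervals reached beyond 1.4-fold for 6 genes: downward for *Sdha* and *Uqcrq*, upward for *Cox7c*, *Atp5l* and *Atp5s*, and both ways for *Atp5g2*. The width of these intervals depends on depth and the spread of 2 libraries per genotype. For *Sdha* the log2 fold change itself, -0.44, lay near that limit.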
